A study of Mus musculus with 9 samples.

Results

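Gene expression in 33377 was set against that in 33373. Both are cell lines grown from mammary tumours of MMTV-neu mice, both are labelled Jak1 wild type, and each is present as 1 library, so 2 of the 9 libraries of the series were compared. The series asks what the loss of Janus kinase 1 (JAK1) does in such tumour cells, and these 2 lines serve in it as cells that still carry the kinase. Here they were set against each other to show how far a pair of lines with the same labelled genotype can lie apart. Genes entered when they had at least 5 FPKM in either library (fragments scaled by transcript length and library depth). Genes whose symbols begin with Mir, Snor, Scarna or Rnu, which encode short noncoding RNAs, were left out. This left 9442 of 24342 genes.

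33377 and 33373 share the FVB/N strain, the MMTV-neu transgene, the Jak1 wild-type state and the culture conditions. The transgene puts the rat neu (Erbb2) oncogene under the mouse mammary tumour virus promoter, which is active in mammary epithelium. Neither line is among those that the labels list as treated with puromycin. The other 7 libraries come from lines 45555, 47298 and 45566B, each as wild type and as Jak1 knockout with puromycin, and from line 46295, which is present only as knockout. The medium held serum, insulin, hydrocortisone and epidermal growth factor, and the cells were adherent. RNA was taken with RNeasy columns, copied with oligo-dT primers and made into TruSeq libraries. The labels state neither the age of the mice nor whether a line is a single clone. With 1 library on each side no test was possible, and no difference below has a replicate error.

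Mammary tumours driven by neu are epithelial, and their cells are held together by E-cadherin, claudins and desmosomes and filled with keratin filaments. Epithelial tumour cells can lose these contacts and take on a mesenchymal form with vimentin, matrix crosslinkers and fibrillar collagens, a change called epithelial-mesenchymal transition (EMT). Transcription factors of the SNAI, ZEB, TWIST and PRRX families are known for their part in it. SNAI and ZEB proteins bind the DNA hexamer CAGGTG, called an E-box, in promoters of epithelial genes such as that of E-cadherin.

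The 4 promoters that follow first belong to genes that were much lower in 33377 than in 33373 and hold this hexamer, and the last 2 belong to genes that were much higher and do not hold it. They are shown because the hexamer was more frequent among the genes lower in 33377, as described further on. Each is the RefSeq stretch on GRCm38.p6 from 250 bases before to 50 bases after the start of the gene, 5′ to 3′ along the gene's own strand, with CAGGTG or its reverse complement CACCTG in capitals. The stretches lie at chr17:87635729-87636028 on the plus strand (Epcam), chr5:134946885-134947184 on the minus strand (Cldn4), chr3:88548230-88548529 on the minus strand (Rab25), chr15:101412153-101412452 on the plus strand (Krt7), chr1:45311288-45311587 on the plus strand (Col3a1) and chr2:30845117-30845416 on the plus strand (Prrx2).
Epcam: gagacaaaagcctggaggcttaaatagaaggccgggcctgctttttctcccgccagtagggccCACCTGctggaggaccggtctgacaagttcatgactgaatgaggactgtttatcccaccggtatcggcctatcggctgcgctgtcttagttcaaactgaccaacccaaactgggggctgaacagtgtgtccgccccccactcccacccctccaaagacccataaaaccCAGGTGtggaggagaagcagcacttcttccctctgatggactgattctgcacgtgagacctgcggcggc
Cldn4: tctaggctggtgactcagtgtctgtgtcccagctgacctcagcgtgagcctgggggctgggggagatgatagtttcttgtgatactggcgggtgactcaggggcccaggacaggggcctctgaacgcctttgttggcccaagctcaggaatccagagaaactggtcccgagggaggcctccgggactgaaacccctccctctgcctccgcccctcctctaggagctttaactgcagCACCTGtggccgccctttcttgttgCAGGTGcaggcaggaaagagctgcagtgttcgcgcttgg
Rab25: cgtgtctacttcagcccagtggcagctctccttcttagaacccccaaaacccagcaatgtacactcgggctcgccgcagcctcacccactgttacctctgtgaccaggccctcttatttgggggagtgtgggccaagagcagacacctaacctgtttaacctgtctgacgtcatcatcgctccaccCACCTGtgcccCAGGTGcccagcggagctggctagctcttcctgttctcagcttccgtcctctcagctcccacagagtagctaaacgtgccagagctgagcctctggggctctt
Krt7: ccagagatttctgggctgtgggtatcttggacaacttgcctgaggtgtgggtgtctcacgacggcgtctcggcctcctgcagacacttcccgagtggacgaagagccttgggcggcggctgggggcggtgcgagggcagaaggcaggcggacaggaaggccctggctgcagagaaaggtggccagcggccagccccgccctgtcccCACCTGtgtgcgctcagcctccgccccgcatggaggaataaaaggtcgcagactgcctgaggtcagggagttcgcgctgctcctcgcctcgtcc
Col3a1: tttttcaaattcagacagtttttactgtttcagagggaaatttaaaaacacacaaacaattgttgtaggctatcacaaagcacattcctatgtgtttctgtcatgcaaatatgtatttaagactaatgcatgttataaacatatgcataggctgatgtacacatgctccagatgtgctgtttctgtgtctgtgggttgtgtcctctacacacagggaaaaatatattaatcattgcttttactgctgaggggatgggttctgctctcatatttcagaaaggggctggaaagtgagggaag
Prrx2: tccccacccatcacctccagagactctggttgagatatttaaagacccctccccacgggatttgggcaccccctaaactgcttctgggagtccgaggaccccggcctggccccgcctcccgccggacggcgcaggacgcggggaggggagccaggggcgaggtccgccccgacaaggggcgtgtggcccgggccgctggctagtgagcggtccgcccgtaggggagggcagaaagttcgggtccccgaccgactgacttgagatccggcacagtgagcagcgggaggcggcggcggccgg
Counted from the gene start, the hexamer began at -187 and -19 in Epcam, at -14 and 11 in Cldn4, at -64 and -53 in Rab25 and at -44 in Krt7. A match of letters is a description of the sequence and shows no binding.

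Values are differences of log2(FPKM + 1), 33377 minus 33373, unless they are given in FPKM. A gene is called past the fold when its difference was at least 2 or at most -2, which is 4-fold on the FPKM + 1 scale and understates the change of low genes. Past the fold were 195 genes higher in 33377 (2.07% of the genes that entered) and 482 genes lower in 33377 (5.1%), together 677 genes (7.17%). The bulk of the genes were close in both libraries. The median difference was 0.034, the quartiles were -0.36 and 0.45, and 80.6% of genes lay between -1 and 1. The lower side also reached further, with 69 genes at -5 or less and 12 genes at 5 or more. Because a gene could enter through 1 library alone, every gene near 0 FPKM in 1 library and above the entry level in the other had to differ. Just inside the limit were Ifi27l2a, with 170.5 FPKM in 33377 and 41.7 FPKM in 33373, and Atp6v0e2, with 5.21 FPKM in 33377 and 23.9 FPKM in 33373. Just outside were P3h1, with 24.5 FPKM in 33377 and 5.46 FPKM in 33373, and Elf3, an epithelial transcription factor, with 1.17 FPKM in 33377 and 7.66 FPKM in 33373.

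**Figure D1:**
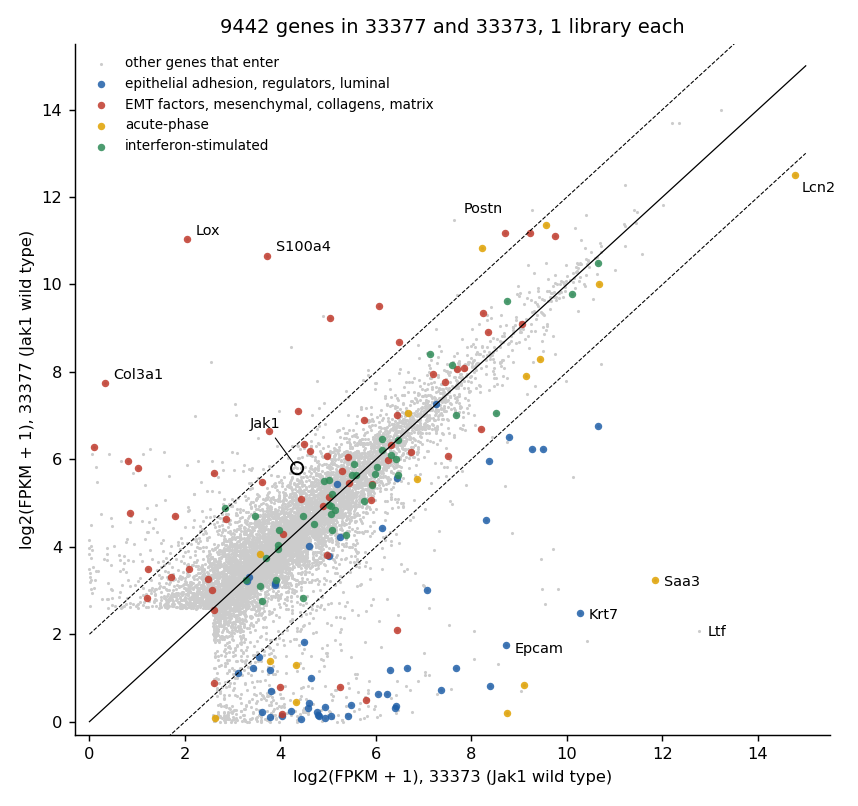
Each point is 1 of the 9442 genes, with log2(FPKM + 1) in 33377 on the vertical axis and in 33373 on the horizontal axis; coloured points are members of the gene lists named in the key, the solid line marks equal values and the dashed lines mark differences of 2 and -2. Most epithelial genes lie below the lower dashed line and Lox, S100a4 and Col3a1 far above the upper one, while interferon-stimulated genes follow the line of equal values and Jak1 (circled) stands at 1.45.

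The library of 33377 summed to 593333 FPKM and that of 33373 to 567403 FPKM, with 11164 genes at 1 FPKM or more in 33377 and 11622 in 33373. The number of fragments is unknown. Among 2476 genes below 0.5 FPKM in both libraries the most frequent ratio of the values, 33377 over 33373, was 0.963, found in 351 of them within a relative tolerance of 0.002. If these genes hold equal numbers of fragments, 1 fragment was worth nearly the same in both libraries and the depths were close. Short RNA genes took 8.37% of the summed FPKM in 33377 and 5.99% in 33373. Of the housekeeping genes, none of the 16 that entered was past the fold. Their median difference was 0.056, with a range of -0.89 to 0.98. Actb, the cytoplasmic actin, had 1510.4 FPKM in 33377 and 1393 FPKM in 33373, and Eef1a1, a translation elongation factor, had 3605 FPKM in 33377 and 4146 FPKM in 33373. The same held for 21 ribosomal protein genes, 20 respiratory chain genes, 21 glycolysis and hypoxia genes and 21 genes of cholesterol and fatty acid synthesis, none of which was past the fold. As 7.17% of all genes were past it, none or 1 in a list of this size is near the share of all genes, here and in the lists below. The counts of every list below stand beside shares of 2.07% higher and 5.1% lower among all genes.

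Genes of epithelial adhesion were lower in 33377. Of 25 listed adhesion and junction genes 24 entered, 17 were past the fold and lower and none higher, against 5.1% and 2.07% of all genes, and the median difference was -3.66. Epcam, the epithelial cell adhesion molecule, had 2.36 FPKM in 33377 and 419.8 FPKM in 33373, a difference of -6.97. Cdh1, which encodes E-cadherin, had 7.02 FPKM in 33377 and 134 FPKM in 33373, a difference of -4.07. 33377 thus held these transcripts at low but not absent levels, and 33373 held them at high levels. Of the claudins, which seal tight junctions, Cldn4 had 0.77 FPKM in 33377 and 332 FPKM in 33373, Cldn7 had 0.646 FPKM in 33377 and 163 FPKM in 33373 and Cldn3 had 1.35 FPKM in 33377 and 205 FPKM in 33373. Ocln (occludin, 0.0743 FPKM in 33377 and 12.8 FPKM in 33373), Crb3 (a polarity protein, 0.0666 FPKM in 33377 and 29.6 FPKM in 33373), Lsr (a protein of tricellular junctions, 0.546 FPKM in 33377 and 74.4 FPKM in 33373) and the desmosome genes Dsp (1 FPKM in 33377 and 23.9 FPKM in 33373), Dsg2 (0.19 FPKM in 33377 and 17.5 FPKM in 33373) and Pkp3 (0.258 FPKM in 33377 and 29.4 FPKM in 33373) were past the fold in the same direction. Perp, another desmosome-associated gene, stood at 152 FPKM in 33377 and 153 FPKM in 33373, so not every junction gene was lower. Fewer cells of an epithelial kind in the culture and less of these RNAs per cell cannot be told apart in bulk RNA.

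Regulators of the epithelial state showed the same side. Of 19 listed genes 15 entered, 12 were lower past the fold and none was higher, with a median of -4.64. Ehf and Elf5, ETS-family transcription factors of epithelium, had 0.243 and 0.284 FPKM in 33377, against 83.4 and 84 FPKM in 33373. Grhl2, a grainyhead factor that maintains Cdh1, had 0.0937 FPKM in 33377 and 15.4 FPKM in 33373, a difference of -3.91. Esrp1, which directs epithelial splicing, had 0.236 FPKM in 33377 and 22.9 FPKM in 33373, a difference of -4.27. Rab25, a small GTPase of epithelial recycling, had 0.555 FPKM in 33377 and 65.3 FPKM in 33373, a difference of -5.41. St14 (matriptase), its inhibitor Spint1 and the membrane protease Prss8 were lower as well, at -5.41, -5.13 and -4.64. The 3 members not past the fold were Elf3, Cdc42bpg and Klf5, the last at 15.2 FPKM in 33377 and 23.3 FPKM in 33373; Cdc42bpg and Klf5 were named after their values were seen.

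Luminal markers followed. Of 20 listed 12 entered, and 10 were lower past the fold, with a median of -3.47. Krt7, a simple-epithelium keratin, had 4.59 FPKM in 33377 and 1231 FPKM in 33373, a difference of -7.78. Krt8 and Krt18, the paired keratins of luminal cells, had 74.9 and 74.8 FPKM in 33377, against 620.0 and 721 FPKM in 33373. Keratin transcripts were thus lower in 33377 but stayed well above 5 FPKM for this pair. Prlr, the prolactin receptor, had 0.0941 FPKM in 33377 and 41.4 FPKM in 33373, and Kit, the receptor of stem cell factor and a luminal progenitor marker, had 0.0448 FPKM in 33377 and 20.5 FPKM in 33373. Wfdc2, a secreted whey acidic protein relative, had 108 FPKM in 33377 and 1604 FPKM in 33373. The members not past the fold, named after their values were seen, were Gata3, a transcription factor of luminal cells, at 42.3 FPKM in 33377 and 35.2 FPKM in 33373, and Areg, an EGF receptor ligand, at 7.77 FPKM in 33377 and 13.7 FPKM in 33373.

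Basal markers gave no common direction. Of 17 listed only 5 entered. Krt14, a basal keratin, had 0.109 FPKM in 33377 and 30.8 FPKM in 33373, while Acta2, the smooth muscle actin of myoepithelial cells and myofibroblasts, had 48.4 FPKM in 33377 and 2.17 FPKM in 33373. Itgb4, the integrin of hemidesmosomes, was equal at 40.3 FPKM in 33377 and 42.3 FPKM in 33373, yet Lamb3, a laminin chain of its ligand, had 0.416 FPKM in 33377 and 54.4 FPKM in 33373.

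**Figure D2:**
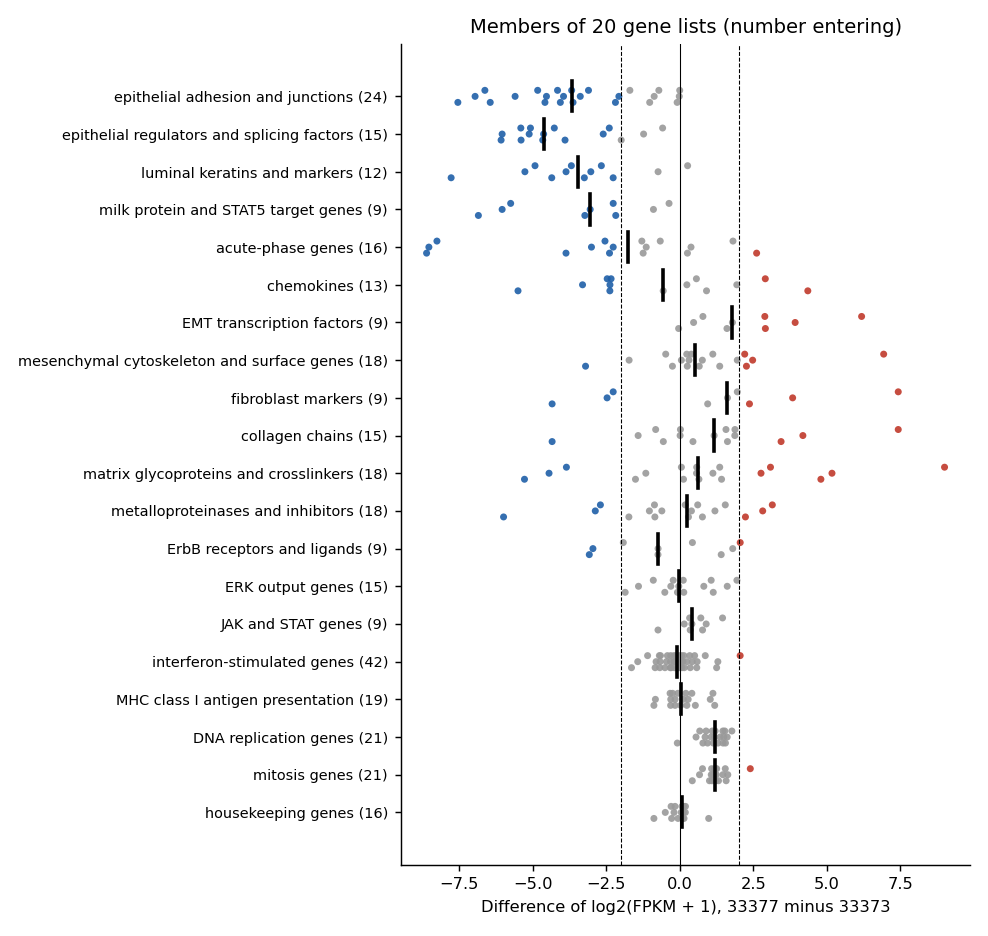
The horizontal axis gives the difference of log2(FPKM + 1), 33377 minus 33373, for each member (point) of 20 gene lists, with the number of members that entered beside each name and the median as a black bar; red points are at 2 or more and blue points at -2 or less. The 3 epithelial lists have medians between -4.64 and -3.47, the EMT factors have 1.79, and the DNA replication and mitosis genes have 1.18 and 1.20.

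Several EMT transcription factors were higher in 33377. Of 10 listed 9 entered, 4 were higher past the fold and none was lower, against 2.07% and 5.1% of all genes. The median was 1.79. Twist1 had 99.2 FPKM in 33377 and 12.5 FPKM in 33373, a difference of 2.89. Twist2 had 26.3 FPKM in 33377 and 0.802 FPKM in 33373, a difference of 3.92, Snai1 had 24.9 FPKM in 33377 and 2.45 FPKM in 33373, a difference of 2.91 and Prrx2 had 76.7 FPKM in 33377 and 0.0711 FPKM in 33373, a difference of 6.18. The largest of these differences, that of Prrx2, came from a transcript near 0 in 33373. The other 5, named after their values were seen, were closer together. Snai2 had 8.93 FPKM in 33377 and 2.28 FPKM in 33373, Zeb1 had 7.12 FPKM in 33377 and 4.88 FPKM in 33373 and Zeb2 had 8.56 FPKM in 33377 and 4.56 FPKM in 33373. Tcf4, a basic helix-loop-helix factor, had 24 FPKM in 33377 and 6.27 FPKM in 33373, and Prrx1 was equal at 4.88 FPKM in 33377 and 5.07 FPKM in 33373. Zeb1 and Zeb2 were therefore read in 33373 too, beside its high Cdh1. In the 3 libraries of 45566B and 46295 Zeb1 stood at 0.0208 to 0.122 FPKM and Zeb2 at 0.0931 to 0.235 FPKM, below both lines. Summed over the 10 listed factors the order differed, with 283 FPKM in 33377 and 38.9 FPKM in 33373. The sums were 57.1 FPKM in 45566B wild type, 57.5 FPKM in 45566B knockout and 46.9 FPKM in 46295, above that of 33373.

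The gene furthest apart on the higher side was Lox, lysyl oxidase, which crosslinks collagen and elastin, with 2102 FPKM in 33377 and 3.1 FPKM in 33373, a difference of 9.0. Its relative Loxl1 had 54.8 FPKM in 33377 and 1.01 FPKM in 33373, a difference of 4.79. Other matrix genes past the fold were Bgn (biglycan, 61.7 FPKM in 33377 and 0.739 FPKM in 33373), Fbn1 (fibrillin 1, 50.6 FPKM in 33377 and 5.1 FPKM in 33373) and Fstl1 (a secreted glycoprotein, 138 FPKM in 33377 and 19.5 FPKM in 33373). Of 21 listed matrix genes 18 entered, and beside these 5 there were 3 past the fold and lower, among them Lamb3, given above, and Thbs2 (thrombospondin 2, 0.128 FPKM in 33377 and 15.4 FPKM in 33373). Fibronectin (Fn1) was high in both lines, at 2211 FPKM in 33377 and 865 FPKM in 33373. Mesenchymal cytoskeleton and surface genes gave 4 higher and 1 lower of 18 that entered, against 2.07% and 5.1% of all genes. S100a4, a calcium-binding protein also called fibroblast-specific protein, had 1599 FPKM in 33377 and 12.1 FPKM in 33373, a difference of 6.93. Vim, vimentin, had 2315 FPKM in 33377 and 416 FPKM in 33373, a difference of 2.47, and Cav1, caveolin 1, had 412 FPKM in 33377 and 88.6 FPKM in 33373, a difference of 2.2. Vimentin was thus also high in 33373. Cdh2, N-cadherin, which was named after its values were seen, stood at 33 FPKM in 33377 and 20.5 FPKM in 33373, and Cdh11, another mesenchymal cadherin, went the other way with 0.72 FPKM in 33377 and 14.9 FPKM in 33373, a difference of -3.21.

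Collagen genes were split. Of 20 chains 15 entered, 3 were higher past the fold and 1 was lower, against 2.07% and 5.1% of all genes. The median was 1.16. Col3a1, the chain of type III collagen, had 213 FPKM in 33377 and 0.246 FPKM in 33373, a difference of 7.43. Col6a1 and Col6a2, which assemble type VI collagen, had 731 and 598 FPKM in 33377, against 66.4 and 32 FPKM in 33373. The paired chains of type I collagen went in opposite directions. Col1a2 had 3.25 FPKM in 33377 and 85.6 FPKM in 33373, a difference of -4.35, whereas Col1a1, named after its values were seen, had 6.12 FPKM in 33377 and 1.32 FPKM in 33373, a difference of 1.62. In the wild-type libraries of 45555 and 47298 both type I chains were far higher, with 1879 and 1728 FPKM of Col1a1 and 2174 and 2509.9 FPKM of Col1a2. 33377 therefore held type III and type VI collagen transcripts with little type I.

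Markers of fibroblasts also went in both directions. Of 14 listed 9 entered, with 3 higher and 3 lower past the fold, against 2.07% and 5.1% of all genes. Col3a1, among the higher, and Col1a2, among the lower, are also in the collagen list, so these splits are partly the same genes. Postn, periostin, had 2841 FPKM in 33377 and 198 FPKM in 33373, a difference of 3.83, and Pdgfrb, the receptor of platelet-derived growth factor B, had 129 FPKM in 33377 and 24.3 FPKM in 33373, a difference of 2.37. Dcn, decorin, had 15.4 FPKM in 33377 and 78.3 FPKM in 33373, a difference of -2.27, and Fbln1, fibulin 1, had 0.161 FPKM in 33377 and 5.47 FPKM in 33373, a difference of -2.48. The summed level of the list was 3255 FPKM in 33377 and 408 FPKM in 33373, and 9.55 to 6877 FPKM in the other 7 libraries. Postn alone held 2841 FPKM of the sum in 33377 and 198 FPKM of that in 33373. No member was at 0 in either line. Of 8 smooth muscle markers 2 entered, and Acta2 alone was past the fold. Endothelial markers were near 0, with none of 8 entering and sums of 1.77 FPKM in 33377 and 2.31 FPKM in 33373. Of 13 immune cell markers Cd68, a lysosomal protein of macrophages that other cells also make, entered, and the list summed to 6.71 FPKM in 33377 and 19.1 FPKM in 33373, with 4 members at 0 in each line. Whether a mixture of cell types has a part in any difference was not tested.

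Matrix proteases and their inhibitors, listed together, gave 3 higher and 3 lower of 18 that entered, against 2.07% and 5.1% of all genes. Mmp14, the membrane-anchored matrix metalloproteinase that activates pro-MMP2, had 0.292 FPKM in 33377 and 81.7 FPKM in 33373, a difference of -6.0. Its substrate Mmp2 had 8.69 FPKM in 33377 and 1.07 FPKM in 33373, a difference of 2.23. Mmp7 and Mmp13 were lower, at -2.71 and -2.88, and Adamts1 and Plat (tissue plasminogen activator) were higher, at 3.14 and 2.82. The inhibitors Timp1, Timp2 and Timp3 were not past the fold and lay between 0.18 and 0.76.

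Milk genes and other targets of the prolactin pathway were lower in 33377. Of 14 listed 9 entered, and 7 were lower past the fold and none higher, with a median of -3.05. The caseins Csn1s1 and Csn3 had 5.43 and 14.4 FPKM in 33377, against 744 and 835 FPKM in 33373. Mfge8, a milk fat globule protein, had 221 FPKM in 33377 and 1009 FPKM in 33373, and Cish, a feedback inhibitor that STAT5 induces, had 0.584 FPKM in 33377 and 12.2 FPKM in 33373. Stat5a and Stat5b themselves were not past the fold and stood at 0.89 and 0.71; both were named after their values were seen. The members not past the fold in the list were Socs2, at 85.6 FPKM in 33377 and 111 FPKM in 33373, and Xdh, xanthine dehydrogenase of the milk fat globule, at 85.8 FPKM in 33377 and 161 FPKM in 33373, also named after their values were seen.

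Antimicrobial and acute-phase genes held the 6 most negative differences of the whole table. Ltf, the iron-binding milk protein lactoferrin, had 3.21 FPKM in 33377 and 6933 FPKM in 33373, a difference of -10.68. Pglyrp1, a peptidoglycan-binding protein, had 2.59 FPKM in 33377 and 1372 FPKM in 33373, a difference of -8.58, and Sftpd, surfactant protein D, had 0.622 FPKM in 33377 and 525 FPKM in 33373, a difference of -8.34. Of 18 acute-phase genes 16 entered, 8 were lower past the fold and 1 was higher, with a median of -1.78. The serum amyloid A genes stood apart in 33373. Saa3 had 8.41 FPKM in 33377 and 3699 FPKM in 33373, a difference of -8.62. Saa1 had 0.785 FPKM in 33377 and 549 FPKM in 33373 and Saa2 had 0.156 FPKM in 33377 and 429.8 FPKM in 33373; these near-identical copies may share reads, so their split is uncertain. In the other 7 libraries Saa1 and Saa2 were listed at 0 and Saa3 stood at 0.12 to 7.61 FPKM. Lcn2, lipocalin 2, was among the highest transcripts of both lines, with 5780.3 FPKM in 33377 and 27898 FPKM in 33373, a difference of -2.27. Hp (haptoglobin), Cfb (complement factor B) and Lrg1 were lower too, at -3.01, -3.88 and -2.4. On the other side, the metallothioneins Mt2 and Mt1 were higher, with 1823 and 2627 FPKM in 33377, against 298 and 751 FPKM in 33373, of which Mt2 was past the fold.

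Chemokines and cytokines went in both directions. Of 18 chemokines 13 entered, with 2 higher and 6 lower past the fold, against 2.07% and 5.1% of all genes. Ccl2 and Ccl7, which attract monocytes, had 379 and 47.4 FPKM in 33377, against 17.6 and 5.47 FPKM in 33373. The neutrophil attractants Cxcl1, Cxcl2 and Cxcl5 were lower, at -2.47, -2.38 and -3.31, and so was Ccl20, at -5.51. Csf3, the granulocyte growth factor, had 1.7 FPKM in 33377 and 263 FPKM in 33373, a difference of -6.61. S100a8 and S100a9, calcium-binding proteins of neutrophils and inflamed epithelium, had 7.19 and 1.18 FPKM in 33377, against 899 and 130.3 FPKM in 33373. Il33, an alarmin of the interleukin-1 family, had 69 FPKM in 33377 and 1.18 FPKM in 33373, a difference of 5.01, and its receptor Il1rl1 had 6.67 FPKM in 33377 and 0.0388 FPKM in 33373, a difference of 2.88. Nos2, inducible nitric oxide synthase, was lower at -2.58. With a pseudocount of 5 in place of 1, Cxcl2, Il1rl1 and Nos2 were no longer past the fold, at -1.02, 1.21 and -1.38. None of 12 NF-kappaB subunit and feedback genes was past the fold, with a median of -0.24.

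A pair of ligands of the gp130 receptor, which signals through JAK1, were lower in 33377. Of 7 listed 4 entered, and 2 were lower past the fold and none higher, against 5.1% and 2.07% of all genes. The median was -2.05. Il6 had 0.61 FPKM in 33377 and 13.5 FPKM in 33373, a difference of -3.17, and Lif, leukaemia inhibitory factor, had 10.2 FPKM in 33377 and 98.8 FPKM in 33373, a difference of -3.15. The other 2 that entered, Clcf1 and Ctf1, differed by -0.95 and -0.16 and were named after their values were seen. The receptor chain Il6st itself was close, at 58.8 FPKM in 33377 and 41.1 FPKM in 33373. Of 20 genes that STAT3 induces or that feed back on it, 3 were lower past the fold, and the median was -0.19. These were Icam1, an adhesion molecule, at -3.84, with Lrg1 and Lcn2 named above. Cebpd and Junb, which STAT3 induces, were near equal, at -0.21 and -0.039.

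Of 11 JAK and STAT genes 9 entered, and none was past the fold, against 7.17% of all genes. Of the 9, 8 were above 0, against 52.4% of all genes, with a median of 0.41. Jak1, at chr4:101152367-101265282 on the minus strand (GRCm38), had 54.6 FPKM in 33377 and 19.4 FPKM in 33373, a difference of 1.45. Both lines are labelled Jak1 wild type, and their levels differed by less than the fold. Jak1 stood at 86.7 FPKM in 45555 wild type, at 63.1 FPKM in 47298 wild type and at 16.1 FPKM in 45566B wild type, and at 14.2 to 74.4 FPKM in the knockout libraries, so the level of Jak1 RNA did not separate the labelled genotypes. Stat3, which gp130 signalling activates, had 65 FPKM in 33377 and 109.7 FPKM in 33373.

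Of 45 genes that interferons induce 42 entered, 1 was past the fold, against 7.17% of all genes, and the median was -0.089. Of these 42 genes 3 were at 1 or more and 3 at -1 or less, against 9.74% and 9.7% of all genes. Ifitm3, a membrane protein that blocks virus entry, had 1444 FPKM in 33377 and 1611 FPKM in 33373. Bst2, tetherin, had 875 FPKM in 33377 and 1101 FPKM in 33373. The 1 gene past the fold was Oas2, an oligoadenylate synthetase, with 28.8 FPKM in 33377 and 6.19 FPKM in 33373, a difference of 2.05. The list summed to 5229 FPKM in 33377 and 5374 FPKM in 33373, the third and second place among the 9 libraries. Its sum was 8966 FPKM in 45566B wild type, 2612 FPKM in 45555 wild type, 4443 FPKM in 47298 wild type and 749 to 1221 FPKM in the knockout libraries. Of 19 genes of class I antigen presentation none was past the fold, with a median of 0.026. B2m, the light chain of class I molecules, had 1648 FPKM in 33377 and 3046 FPKM in 33373, and the heavy chain gene H2-K1 had 411 FPKM in 33377 and 513 FPKM in 33373; reads of class I genes may be shared between near-identical copies. H2-DMb1 and H2-DMb2, paired class II peptide-loading genes that may share reads, were lower, at -3.04 and -2.65.

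Erbb2 and its dimer partner were lower in 33377, and the ligand Nrg1 was higher. Of 14 listed ErbB receptors and ligands 9 entered, with 1 higher and 2 lower past the fold, against 2.07% and 5.1% of all genes. The ligand Areg, given above, stood at -0.74. Erbb2 had 19.7 FPKM in 33377 and 159.8 FPKM in 33373, a difference of -2.96. Its FPKM may hold reads of the mouse gene and of the rat transgene, which cannot be told apart here. Erbb3, its dimer partner, had 0.424 FPKM in 33377 and 11.1 FPKM in 33373, a difference of -3.08, and the ligand Nrg1, neuregulin 1, had 19.7 FPKM in 33377 and 3.99 FPKM in 33373, a difference of 2.05. Among the other 7 libraries Erbb2 ranged from 7.84 to 335 FPKM. Of 15 genes that report ERK output downstream of ErbB receptors none was past the fold, with a median of -0.040; Egr1 had 103 FPKM in 33377 and 26.2 FPKM in 33373, and Ier3 had 47.8 FPKM in 33377 and 177 FPKM in 33373. Of 13 Wnt pathway genes that entered, 3 were lower past the fold and none was higher. The ligands Wnt5b and Wnt7b were lower, at -4.46 and -4.04. Of 19 other receptor tyrosine kinases and ligands that entered, 3 were higher and 2 lower past the fold. Ephb2, an ephrin receptor, was higher, with 35.7 FPKM in 33377 and 3.56 FPKM in 33373, and Kit, given above, was lower.

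**Figure D3:**
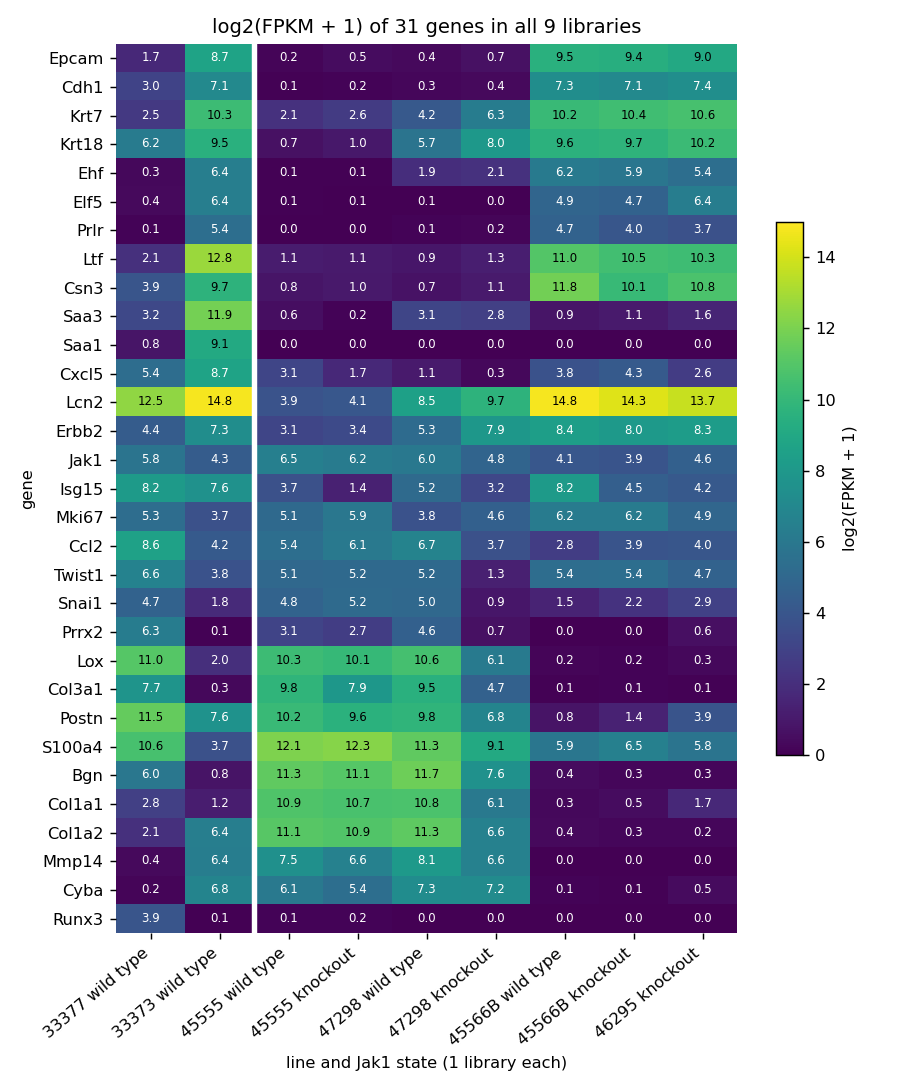
Each cell gives log2(FPKM + 1) of 1 of 31 genes (down) in 1 of the 9 libraries (across), with 33377 and 33373 left of the white line and the other lines, wild type and knockout, to its right. 33377 is low for Epcam and high for Lox like both 45555 libraries and 47298 wild type, 33373 is high for Epcam like 45566B and 46295, and Mmp14, Cyba and Col1a2 are low in 33377 but not in 33373.

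DNA replication and mitosis genes were mostly higher in 33377, and all but 1 stayed short of the fold. Of 21 DNA replication genes 20 were above 0 and 14 at 1 or more, and of 21 mitosis genes all 21 were above 0 and 18 at 1 or more, whereas 52.4% of all genes were above 0 and 9.74% at 1 or more. The medians were 1.18 and 1.20, with ranges of -0.09 to 1.77 and of 0.42 to 2.39. Mcm6, a subunit of the replicative helicase, had 98.9 FPKM in 33377 and 35.3 FPKM in 33373. Top2a, topoisomerase II alpha, had 96.1 FPKM in 33377 and 39.8 FPKM in 33373, and Ccna2, cyclin A2, had 80.7 FPKM in 33377 and 27.1 FPKM in 33373. Cdc20, which activates the anaphase-promoting complex, was the only gene of these lists past the fold, with 78.6 FPKM in 33377 and 14.2 FPKM in 33373. Among regulators, Cdkn1a, the inhibitor p21, had 62 FPKM in 33377 and 186 FPKM in 33373, and Ccnd1, cyclin D1, was near equal with 476 FPKM in 33377 and 412 FPKM in 33373. The mitosis list summed to 1018 FPKM in 33377 and 445 FPKM in 33373, and the other 7 libraries ranged from 319 to 1654 FPKM. The labels do not state how dense the cultures were at harvest, and the part of growth state was not tested.

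The differences also ran by chromosome. Over genes with a mean of 5 FPKM or more in the 2 libraries, the median difference was 0.84 on chromosome 4 (484 genes) and 0.47 on chromosome 12 (316 genes). On the other 18 chromosomes the medians lay between -0.083 and 0.067. Of the genes on chromosome 4, 91.1% were above 0, with quartiles of 0.45 and 1.13; on chromosome 12, 80.1% were above 0, and over the other 18 chromosomes 48.9% of 7757 genes were. The step ran along the whole of chromosome 4, where all 16 windows of 10 Mb had a median above 0 and the 7 windows with at least 20 genes lay between 0.68 and 1.04. On chromosome 12, 11 of 12 windows were above 0.

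**Figure D4:**
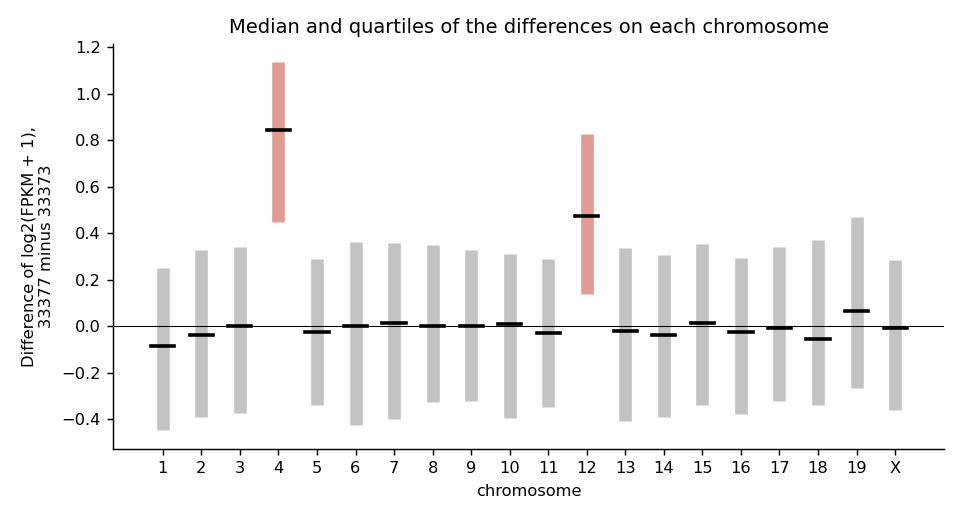
For each chromosome (horizontal axis) the bar spans the quartiles and the black line marks the median of the differences of log2(FPKM + 1), 33377 minus 33373. Chromosome 4 (median 0.84) and chromosome 12 (median 0.47), in red, stand above the others, whose medians lie between -0.083 and 0.067.

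On chromosome 4 both lines lay off the other 7 libraries, in opposite directions. Against the median of the other 7 libraries, genes of chromosome 4 had a median of 0.50 in 33377 and of -0.31 in 33373, whereas genes of chromosome 12 had 0.43 in 33377 and -0.064 in 33373. Chromosome 4 held 5.95% of the genes that entered and have a position, 11.5% of those higher past the fold and 3.02% of those lower. Jak1 lies on chromosome 4. Its difference of 1.45 ranked 60 among the 484 genes, with 12.4% of them at or above it, and exceeded the chromosome's median by 0.61. Of the 25 members of any list that lie on chromosome 4, 21 were above 0. These included genes with unrelated roles such as Sdhb, a respiratory chain subunit (1.16), and Errfi1, an ErbB inhibitor (1.4), and also Cdc20, Ephb2 and Cdkn2c, an inhibitor of cyclin-dependent kinases (2.07). Esrp1 lies there as well and was lower in 33377. Sdhb was the only member of the respiratory chain list at 1 or more, and it was named after its values were seen. DNA was not measured in these samples.

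**Figure D5:**
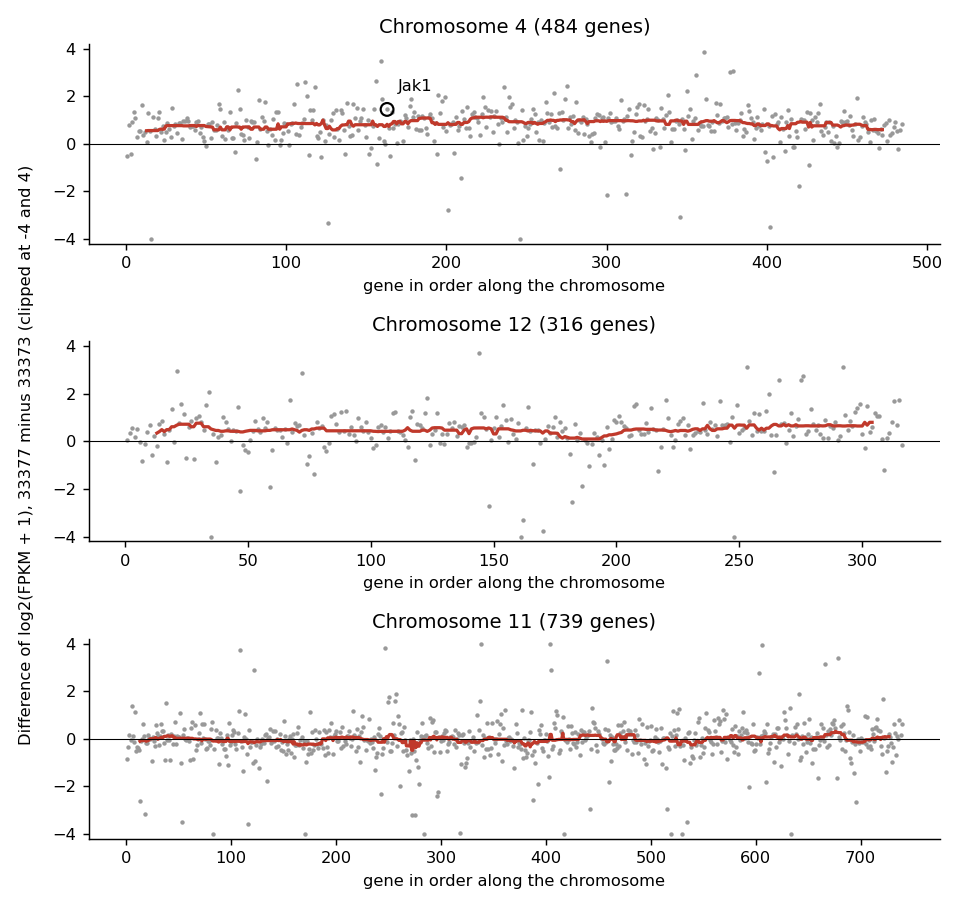
Each grey point is 1 gene in its order along chromosome 4, 12 or 11 (horizontal axis), with the difference of log2(FPKM + 1), 33377 minus 33373, on the vertical axis (clipped at -4 and 4) and the running median of 25 genes in red. The red line stays above 0 along chromosomes 4 and 12 and stays near 0 along chromosome 11; Jak1 is circled.

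The promoter table gave 440 promoters for 330 of the 482 genes lower in 33377 and 195 promoters for 141 of the 195 genes higher in 33377. CAGGTG, on either strand within the 300 bases, was in 162 promoters (36.8%) of the lower genes and in 25 (12.8%) of the higher genes. Over all genes that entered the share was 16.9% of 9371 promoters, and over all 32851 promoters of the table it was 20.2%. Related hexamers differed less: CAGCTG was in 19.3% and 19.5% of the promoters of lower and higher genes and in 14.5% of those of all genes that entered. CATGTG was in 11.4%, 9.74% and 7.67% of the same sets, so for both hexamers the lower and the higher genes lay above all genes that entered. The palindrome AACCGGTT, a grainyhead-like motif, was in 0.227%, 0.513% and 0.277%. All were read on both strands, and neighbouring matches of different motifs may overlap at their ends. The median GC content was 57.3% for lower genes, 60% for higher genes and 61.3% for genes that entered. By list, CAGGTG was in 84.2% of 19 promoters of adhesion and junction genes in 63.6% of 11 promoters of epithelial regulators and in 54.5% of 22 promoters of luminal markers. It was in 40% of 15 promoters of acute-phase genes and in 25% of 36 promoters of interferon-stimulated genes, a list with 1 gene past the fold. It was in 11.1% of 9 promoters of EMT factors, in 10.5% of 19 promoters of collagen genes and in none of 16 promoters of mitosis genes. Epcam, Cldn4, Rab25 and Krt7, printed above, are among those that hold it. Binding was not measured, and these shares are a description with no test.

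Set beside other pairs, the difference between 33377 and 33373 lay within the range of the other pairs of lines. Under the same filter the 3 pairs of 1 line in its wild-type and knockout states had 77, 106 and 728 genes past the fold, and the 33 pairs of different lines had 331 to 1784 with a median of 1036; 8 of these had fewer than the 677 here. Among the 10 pairs of different wild-type lines 2 had fewer. These pairs share libraries and are given as values. The library nearest to 33377 was 47298 knockout, with 527 genes past the fold, and the library nearest to 33373 was 46295 knockout, with 458. The headers of the other 7 columns end in a suffix that those of 33377 and 33373 do not have, so whether all 9 were processed together is unknown.

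For each gene past the fold, the other 7 libraries were sorted by whether they lay nearer to 33377 or to 33373. Of the 482 lower genes, 86.7% were nearer to 33377 than to 33373 in 45555 wild type, 82% in 47298 wild type and 72.8% in 47298 knockout, and 26.3% in 45566B wild type and 22.6% in 46295 knockout. Of the 195 higher genes, 69.2% were nearer to 33377 in 45555 wild type, 66.2% in 47298 wild type and 36.4% in 47298 knockout, and 11.3% in 45566B wild type and 11.8% in 46295 knockout. For 24 higher genes no other library was nearer to 33377, and for 3 higher genes all 7 were. For 32 lower genes all 7 were nearer to 33377, and for 8 lower genes none was. These genes were chosen because 33377 and 33373 differ on them, and a gene could enter through its high library alone. Such a choice can by itself put another library on the low side. That side is 33377 for the lower genes and 33373 for the higher genes. The shares are therefore a description and no measure of likeness between lines.

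With 45555 and 47298 wild type both nearer to 33377, and 45566B wild type and 46295 both nearer to 33373, there were 102 of the 195 higher genes and 278 of the 482 lower genes. A smaller set went against this order, chosen after the shares above were seen. It held 3 higher genes, Gm5424, H2afy2 and Klhdc8a, at 2.09, 2.45 and 3.48. In 20 lower genes the wild-type libraries of 45555 and 47298 were nearer to 33373, and those of 45566B wild type and 46295 were nearer to 33377. Mmp14 was among them, with 181 and 279.8 FPKM in 45555 and 47298 wild type and no more than 0.0203 FPKM in 45566B and 46295. Cyba, a subunit of NADPH oxidase, had 0.171 FPKM in 33377 and 107 FPKM in 33373, a difference of -6.53. Efemp1, a fibulin, had 0.19 FPKM in 33377 and 45.5 FPKM in 33373, a difference of -5.29, and Brinp3 had 0.0745 FPKM in 33377 and 64 FPKM in 33373, a difference of -5.92. Col1a2, Thbs2, Cdh11, Mmp14 and Efemp1 are matrix and mesenchymal genes that were low in 33377 although Lox, Col3a1 and S100a4 were high in it.

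Some genes stood at least 2 above all other 8 libraries on the log2(FPKM + 1) scale in 1 line, and they are named here after their values were seen. 33377 had 16 such genes and 33373 had 28, and 46295, also present as 1 library, had 51. For the lines present in both states the other state is among the 8, and their libraries had 1 to 69. In 33377 they included Runx3, a runt-family transcription factor, at 14.2 FPKM and at most 0.128 FPKM in the other 7 libraries. Foxd1, a forkhead factor, had 14.7 FPKM and was listed at 0 in 33373. Inmt, a methyltransferase, had 68.9 FPKM in 33377 and 0.321 FPKM in 33373, Hhip, an inhibitor of hedgehog ligands, had 71 FPKM in 33377 and 1.96 FPKM in 33373, and Cd34, a surface sialomucin, had 68.5 FPKM in 33377 and 0.0437 FPKM in 33373. In 33373 they included the 3 serum amyloid genes, Cxcl5, S100a9, Il6, Nos2, Lrg1, Cldn1, Krt14 and H19. Cldn1, a claudin, had 0.554 FPKM in 33377 and 155 FPKM in 33373 and 0.355 to 17.3 FPKM in the other 7 libraries. H19, an imprinted noncoding RNA, had 1.25 FPKM in 33377 and 19.4 FPKM in 33373. S100a4 and Txnip, an inhibitor of thioredoxin, had 1599 and 46.3 FPKM in 33377, against 12.1 and 10.6 FPKM in 33373, which was at least 2 below all other libraries.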

How the data were processed

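RNA sequencing libraries of 9 MMTV-neu mammary tumour cell cultures were available, and 33377 and 33373, with 1 library each, were compared. The values are FPKM per gene symbol as the authors deposited them, and the submitters' processing notes name build mm10 and the tools TopHat2 2.1, Cufflinks 2.2, Cuffnorm and cutadapt. No source used here gives the scaling option, the annotation or the use of strand. Reads of a gene and of one that overlaps it, antisense genes included, may therefore be mixed. FPKM hold no counts, so depth is known only as the value of 1 fragment in 33377 relative to 33373. Of 24346 rows 4 with repeated date-like names were left out. Positions came from GENCODE vM21 (GRCm38) for 23243 symbols and promoters from RefSeq. Differences were taken on log2(FPKM + 1) in Python 3.11.15 with numpy 2.4.6 and pandas 2.3.3, and the calculation was tested on simulated data. Named genes are Jak1, Erbb2, the 25 largest differences in each direction, members of 48 lists past the fold or among the 4 highest of a list, and the 10 highest genes of each library, unless the text says otherwise; not every such gene is reported. The members and lists were chosen with earlier results of these data known, and the E-box search was chosen after the differences were seen. Some genes, such as Acta2 and Lcn2, belong to several lists, so list counts are not independent of each other. Pseudocount, filter, scaling and fold were varied.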

Additional observations from a re-analysis of the deposited data

How the results depend on the processing

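With a pseudocount of 5 in place of 1, 82 genes were higher and 200 lower past the fold, and the median of chromosome 4 was 0.65, a setting for chromosomes that was chosen after seeing the data; a larger pseudocount shrinks the differences of low genes by its construction. With a limit of 1 in place of 2 the counts were 920 higher and 916 lower, and with a limit of 3 they were 83 higher and 261 lower. The share of lower genes among those past the fold was 49.9% at the limit of 1, against 71.2% at 2. Under the pseudocount of 0.1, filters of 1 and 10 FPKM, no filter, a filter on the mean of both libraries, centring, rescaling without short RNA genes, and keeping those genes, the counts stayed within 1.5 times 195 and 482. Of 1521 values of 169 named genes under 9 settings none changed direction past the fold; 28 genes were no longer past it with a pseudocount of 5. Col1a1 was past it with a pseudocount of 0.1, at 2.13. Of 426 list counts 42 moved by over 1.5 times, 20 of them with the pseudocount of 5, under which 12 adhesion genes and 11 epithelial regulators were lower past the fold. No paired analysis was possible because each line has 1 library, and for the same reason no library could be left out. Depth limits the genes near 0 FPKM, whose values rest on few fragments of unknown number.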

Other observations

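Enzymes that handle peroxides and electrophiles differed by gene, and the genes in this part were named with their values in view. Gpx2, the glutathione peroxidase of epithelia, had 1.51 FPKM in 33377 and 373 FPKM in 33373, a difference of -7.22. Gsta4, a glutathione transferase for lipid aldehydes, had 47.1 FPKM in 33377 and 1122 FPKM in 33373, a difference of -4.54, while Akr1b8, an aldo-keto reductase, had 14.7 FPKM in 33377 and 0.299 FPKM in 33373, a difference of 3.59. The list of glutathione, NRF2 and aldehyde genes holds Gsta4 and Akr1b8 but not Gpx2. Of its 18 genes that entered, 1 was higher and 2 were lower past the fold, with a median of 0.16. Of these 18 genes 13 were above 0, against 52.4% of all genes. The summed level of the 24 listed genes was 951 FPKM in 33377 and 1889 FPKM in 33373, with 1107 to 2894 FPKM in the other 7 libraries. Gsta4 alone held 1122 FPKM of the sum in 33373 and 47.1 FPKM of that in 33377. The lower sum in 33377 thus rests on this 1 gene.

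The kallikrein-related proteases Klk10, Klk8 and Klk6, which lie in 1 cluster on chromosome 7 and were picked for their large differences, were lower in 33377; the other members of the family were not counted. Klk10 had 3.2 FPKM in 33377 and 265 FPKM in 33373, a difference of -5.99, Klk8 had 0.113 FPKM in 33377 and 66.6 FPKM in 33373, a difference of -5.92 and Klk6 had 0.0304 FPKM in 33377 and 38.1 FPKM in 33373, a difference of -5.25. In both 45555 libraries these 3 genes were at 0 to 0.375 FPKM, and in 45566B wild type they were at 189, 6.11 and 6.89 FPKM. Transcription factors listed for the mammary gland and limb went in both directions. Of 23 listed 13 entered, with 3 higher and 1 lower past the fold, against 2.07% and 5.1% of all genes. The median was 0.31. Tbx18, a T-box factor, had 10.2 FPKM in 33377 and was listed at 0 in 33373, while Sox10, a factor of mammary progenitor and neural crest cells, had 0.455 FPKM in 33377 and 78.6 FPKM in 33373, a difference of -5.77. Hox genes were low in both lines: of 33 listed, only Hoxa5 entered, with 5.25 FPKM in 33377 and 4.45 FPKM in 33373, and the list summed to 18.9 FPKM in 33377 and 14.9 FPKM in 33373, against 6.54 to 177 FPKM in the other 7 libraries.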
